A study of Mus musculus with 8 samples.

Results

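The Zscan4 cluster of mouse chromosome 7 and genes that are transcribed with it in 2-cell-like cells were followed through 8 RNA-seq libraries of mouse embryonic stem cells (mESCs). The 7 genes were taken by name and matched by Ensembl identifier. They are Zscan4b, Zscan4c, Zscan4d, Zscan4e and Zscan4f from the cluster, Gm5662 from chromosome 12 and Duxf3 from chromosome 10. All 7 were among the 52338 genes with values and among the 14561 genes with a mean of at least 1 FPKM over the 8 libraries. Duxf3 reached that level only through the replicate 2 libraries, where it averaged 5.32 FPKM, against 0.0325 FPKM in the replicate 1 libraries.

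Cells treated with sh-linc1393, with sd-linc1393 or with dd-linc1393 (sh, sd and dd) were compared with untreated wild-type cells (control), with 2 libraries in each of the 4 groups. The study asks what linc1393, a long non-coding RNA gene product, does for pluripotency. The labels do not expand sd and dd and name no parental line, and no separate genotype is given for treated cells. The controls received nothing, so a response to linc1393 and a response to receiving a reagent cannot be told apart. No label ties the libraries of a group to separate cultures, so those libraries may be technical repeats. The p-values against control reflect the spread between the 2 libraries of a group. In the fit with no covariates that spread holds the difference between replicate numbers.

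Mouse embryonic stem cell cultures hold a few cells that for a time transcribe genes of the 2-cell embryo. Zscan4 genes encode nuclear proteins with a SCAN domain and zinc fingers, and are known for their burst of transcription in 2-cell embryos and in these cells, and for a role in telomere maintenance. Duxf3, the mouse gene also called Dux, encodes a double homeobox transcription factor that binds and activates many 2-cell genes, Zscan4 genes among them. Gm5662 belongs to a group of Eif1a-like genes that are also known as 2-cell transcripts. In bulk RNA, fewer cells of such a kind and less RNA per cell cannot be told apart.

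The Zscan4 genes are close copies, which limits how far a read can be given to 1 of them. The coding sequences of Zscan4c and Zscan4f were 99.6% identical over 1518 bases and those of Zscan4b and Zscan4e 99.7% identical over 1515 bases. Zscan4c and Zscan4d were 97.7% identical, and Zscan4b and Zscan4d 96.6%. The 60 coding bases with the most variable positions among the 5 copies (7 positions, coding bases 636 to 695, all in exon 4) show the 2 closest pairs. They are given here from the GRCm38 assembly with GENCODE M21 transcripts, 5′ to 3′ on the coding strand, with capitals where a copy differs from Zscan4c.
Zscan4c, chr7:11009111-11009170, plus strand: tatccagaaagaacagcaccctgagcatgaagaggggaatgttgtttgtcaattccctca
Zscan4f, chr7:11401304-11401363, plus strand: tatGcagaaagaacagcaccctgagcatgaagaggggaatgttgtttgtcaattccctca
Zscan4d, chr7:11162747-11162806, minus strand: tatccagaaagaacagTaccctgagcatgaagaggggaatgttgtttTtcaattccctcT
Zscan4b, chr7:10901620-10901679, minus strand: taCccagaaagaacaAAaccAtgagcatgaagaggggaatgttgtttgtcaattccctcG
Zscan4e, chr7:11307249-11307308, minus strand: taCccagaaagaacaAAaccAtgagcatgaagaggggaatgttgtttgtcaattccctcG
Zscan4f differs from Zscan4c at 1 of these bases and Zscan4d at 3. Zscan4b and Zscan4e differ from Zscan4c at 5 and are identical to each other. Over whole transcripts, 95.4% of the 30-base words of Zscan4b also occur in another gene, as do 91.9% of those of Zscan4c, 66.0% of Zscan4d, 94.0% of Zscan4e and 92.0% of Zscan4f. The sources used here do not give how reads that match several copies were counted. Each copy is therefore shown beside the sum of the 5.

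The promoters were also close, from 95.3% identical between Zscan4b and Zscan4c to 99.3% between Zscan4c and Zscan4f. RefSeq windows from 250 bases before to 50 bases after the gene start (GRCm38.p6) matched 5 of the 7 genes, which were Zscan4b, Zscan4c, Zscan4d, Zscan4f and Duxf3. The 250 bases before the start of Zscan4c, chr7:11005495-11005744 on the plus strand, are printed to show what the copies share. Capitals mark the match to TGAT and AATCA with any 2 bases between them, a pattern of the kind bound by double homeobox factors.
Zscan4c: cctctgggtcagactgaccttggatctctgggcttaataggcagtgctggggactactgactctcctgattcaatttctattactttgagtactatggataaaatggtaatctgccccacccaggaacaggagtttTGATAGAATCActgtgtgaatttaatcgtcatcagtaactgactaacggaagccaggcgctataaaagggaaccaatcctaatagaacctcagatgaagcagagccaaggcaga
The other 3 Zscan4 windows hold the same letters in nearly the same surroundings, as these shorter stretches show.
Zscan4b, chr7:10905116-10905156, minus strand: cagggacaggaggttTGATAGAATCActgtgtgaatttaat
Zscan4d, chr7:11166248-11166288, minus strand: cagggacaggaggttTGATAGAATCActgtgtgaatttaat
Zscan4f, chr7:11397809-11397849, plus strand: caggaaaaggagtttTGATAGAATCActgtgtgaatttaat
Counted from the gene start, the match ran from base -114 to -104 in Zscan4c, -125 to -115 in Zscan4d, and -91 to -81 in Zscan4b and Zscan4f. On both strands, 68 of 32851 promoter windows (0.207%) held the pattern, and 4 of the 5 windows matched here did. The pattern was picked after these sequences had been read, so the count describes them and tests nothing. The Duxf3 window did not hold these letters.

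Depth and the replicate number bear on every value that follows. Library totals fitted to the FPKM values were 13738591 to 20387065 reads in the sh, sd and dd groups, against 6415130 (replicate 1) and 3658368 (replicate 2) in control. All 12 stem cell markers, Pou5f1, Sox2 and Nanog among them, had values in every library. Sox2 was low in sh replicate 2, at 19.7 FPKM, against 177 to 371 FPKM in the other libraries. The replicate 2 libraries stood apart from the replicate 1 libraries in all 4 groups. Of 1135 olfactory receptor genes, which are as a rule silent outside the nose, 97.8% (sh), 96.5% (sd), 50.4% (dd) and 86.4% (control) had a value above 0 in replicate 2, against 5.29% to 8.19% in replicate 1. Each group is therefore compared with control within each replicate number as well as over both.

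The summed level of the 5 Zscan4 genes was higher in sd and dd than in control under both replicate numbers. In sh it was higher in replicate 2 and within counting error of control in replicate 1. The sum was 22.8 FPKM in sh replicate 1 and 20.8 in replicate 2. In sd cells it was 44.8 and 26.7 FPKM, in dd cells 34.4 and 20.6 FPKM, and in control cells 22.02 and 9.70 FPKM. Both sd libraries lay above both control libraries, whereas dd replicate 2 and sh replicate 2 lay below control replicate 1.

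By group mean the order was sd (35.7 ± 12.9 FPKM), dd (27.5 ± 9.81), sh (21.8 ± 1.396) and control (15.9 ± 8.71; SD, n = 2 each). Neighbours in this order overlapped in their libraries. Against the control library of the same number, reads of the 5 genes per total reads were 2.03 times as high in sd replicate 1 (95% interval 1.80 to 2.30) and 2.79 times in sd replicate 2 (2.20 to 3.60). For dd the ratios were 1.54 (1.36 to 1.75) in replicate 1 and 2.19 (1.73 to 2.82) in replicate 2. For sh they were 1.03 (0.900 to 1.18) in replicate 1 and 2.12 (1.66 to 2.74) in replicate 2. These exact intervals cover counting error only. All replicate 2 ratios rest on the 73 reads of the 5 genes in control replicate 2, and all replicate 1 ratios on 307 reads in control replicate 1.

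**Figure D1:**
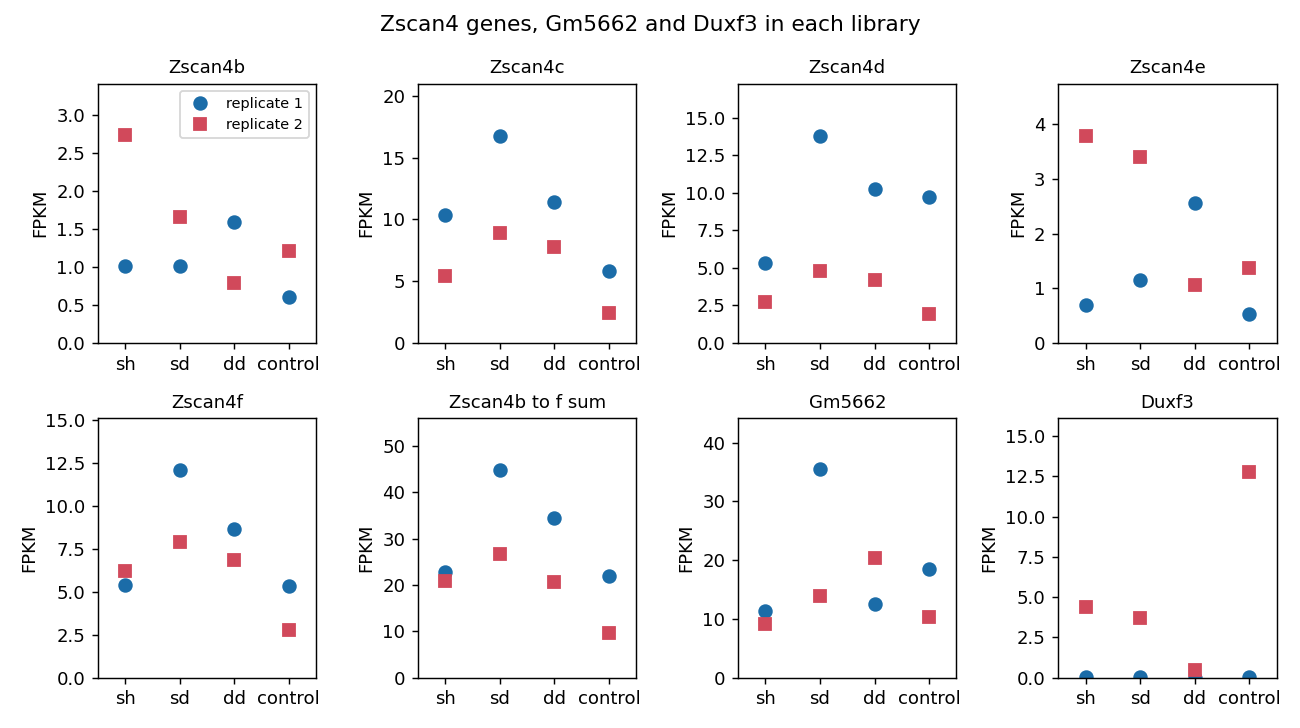
FPKM of each gene and of the Zscan4b to Zscan4f sum in each library, by group, with circles for replicate 1 and squares for replicate 2. The Zscan4 sum is highest in sd replicate 1 at 44.8 FPKM and lowest in control replicate 2 at 9.70 FPKM, and Duxf3 lies near 0 in all replicate 1 libraries.

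Zscan4c (ENSMUSG00000054272, chr7:11005745-11010547 on GRCm38, plus strand) is 1 of the copies with most reads. It had 10.4 and 5.41 FPKM in sh replicates 1 and 2, 16.8 and 8.86 in sd, 11.4 and 7.74 in dd, and 5.82 and 2.40 in control. The sd and dd libraries all lay above both control libraries, while sh replicate 2 lay just below control replicate 1. Within the replicate numbers, all 6 treated libraries were above their control. The read ratios were 1.79 (95% interval 1.402 to 2.29) and 2.25 (1.41 to 3.78) for sh, 2.88 (2.30 to 3.65) and 3.69 (2.35 to 6.13) for sd, and 1.96 (1.56 to 2.50) and 3.22 (2.05 to 5.34) for dd, replicate 1 first. Among Zscan4b to Zscan4f, Zscan4c was the copy whose 6 intervals all lay above 1. On the log2(FPKM + 1) scale the differences from control were 0.83 for sh, 1.46 for sd and 1.11 for dd (SE 0.65), and none passed (limma, adjusted p = 1 in each).

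Zscan4f (ENSMUSG00000070828, chr7:11397915-11402318, plus strand), nearly identical to Zscan4c, had 5.39 and 6.17 FPKM in sh replicates 1 and 2 and 12.1 and 7.91 in sd. It had 8.63 and 6.81 FPKM in dd, against 5.33 and 2.79 in control. All treated libraries lay above both control libraries, sh replicate 1 by a narrow margin. The sh read ratio was 1.01 (0.751 to 1.37) in replicate 1 and 2.21 (1.39 to 3.71) in replicate 2. The log2 differences were 0.47 for sh, 1.14 for sd and 0.82 for dd (SE 0.54; limma, adjusted p = 1 in each).

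Zscan4d (ENSMUSG00000090714, chr7:11161374-11166159, minus strand) has the fewest shared words of the 5. It had 5.32 and 2.71 FPKM in sh replicates 1 and 2, 13.8 and 4.81 in sd, 10.2 and 4.17 in dd, and 9.74 and 1.92 in control. In sh replicate 1 its reads were 0.546 times those of control (0.434 to 0.688), the one ratio among Zscan4b to Zscan4f whose interval lay below 1. In the same library the Zscan4c ratio was 1.79. Zscan4d made up 23.3% of the 5-gene sum in sh replicate 1 and 44.2% in control replicate 1, and Zscan4c made up 45.6% and 26.4%. The log2 differences from control were -0.21 for sh, 0.73 for sd and 0.44 for dd (SE 0.87; limma, adjusted p = 1 in each), and each changed sign when 1 control or treated library was left out.

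Zscan4b (ENSMUSG00000095339, chr7:10900740-10905050, minus strand) and Zscan4e (ENSMUSG00000095936, chr7:11306378-11310682, minus strand) had the lowest levels. Zscan4b had 25 and 69 reads in sh replicates 1 and 2, 37 and 46 in sd, 55 and 29 in dd, and 7 and 8 in control. That is 1.01 and 2.74 FPKM in sh, 1.01 and 1.66 in sd, 1.59 and 0.789 in dd, and 0.606 and 1.21 in control. Zscan4e had 0.690 and 3.79 FPKM in sh, 1.15 and 3.41 in sd, 2.56 and 1.07 in dd, and 0.522 and 1.37 in control. In both genes sh and sd lay above control under both numbers, and dd lay above it in replicate 1 but not in replicate 2. The pair summed gave dd read ratios of 3.68 (2.09 to 7.09) in replicate 1 and 0.718 (0.417 to 1.30) in replicate 2. No log2 difference of either gene exceeded 0.70 (SE 0.59 for Zscan4b and 0.75 for Zscan4e; limma, adjusted p = 1 in each).

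**Figure D2:**
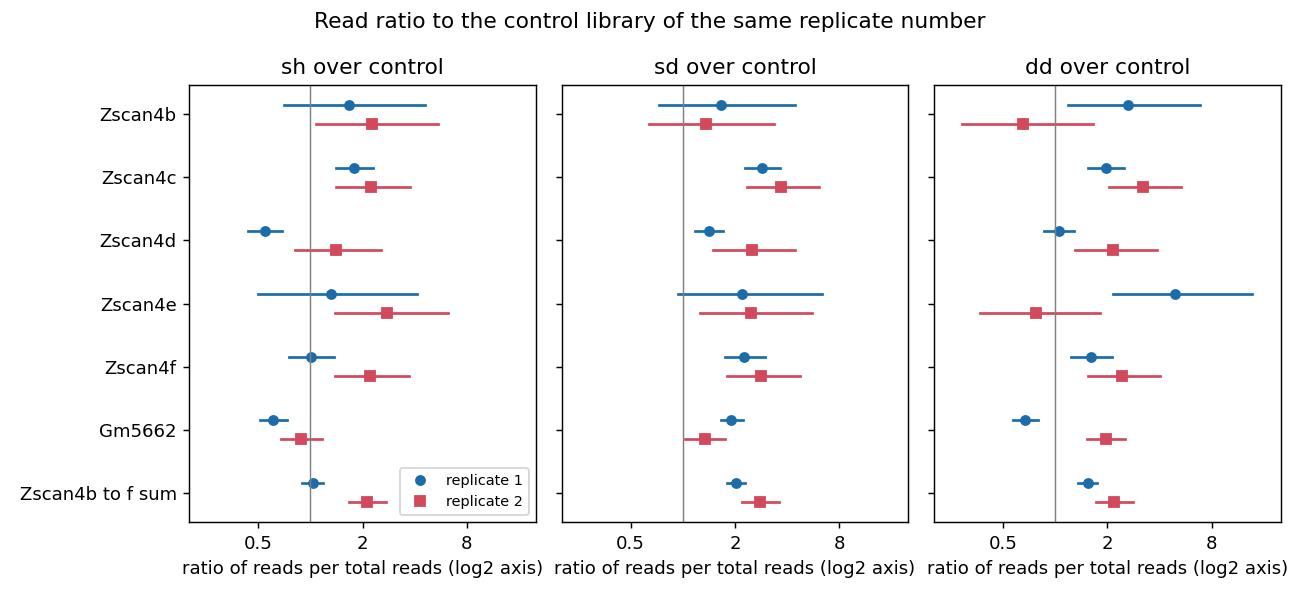
Reads per total reads over the control library of the same replicate number, on a log2 axis, for sh, sd and dd (panels), with exact 95% intervals as lines. Circles are replicate 1 and squares replicate 2. Zscan4c lies right of 1 in all 6 comparisons, from 1.79 to 3.69, whereas Gm5662 lies on both sides.

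Copies outside the 7 genes had levels of the same order, and not all had the same pattern. Zscan4a (annotated as a pseudogene in GENCODE M21) had 10.1 and 4.40 FPKM in sh replicates 1 and 2, 12.9 and 6.31 in sd, 11.1 and 6.03 in dd, and 12.4 and 2.64 in control. Zscan4-ps1 had 3.504 and 3.05 FPKM in sh, 3.63 and 4.46 in sd, 6.22 and 4.601 in dd, and 8.28 and 2.17 in control. Both were above control in all 3 treatments within replicate 2, and within replicate 1 Zscan4-ps1 was below control in all 3. With Zscan4a and the 3 genes named Zscan4-ps1, Zscan4-ps2 and Zscan4-ps3 added, the read ratio of the larger family was 1.56 (1.44 to 1.68) and 2.75 (2.32 to 3.27) in sd. It was 1.27 (1.17 to 1.38) and 2.27 (1.92 to 2.70) in dd, and 0.974 (0.893 to 1.06) and 1.96 (1.65 to 2.34) in sh. By read ratio the order of the 3 treatments was the same as for the 5 genes. By summed FPKM in replicate 2 it was not. For the 5 genes sh (20.8 FPKM) lay just above dd (20.6), and for the larger family dd (42.4) lay above sh (37.7).

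Gm5662 (ENSMUSG00000079029, chr12:88270640-88274500, minus strand) had the highest level of the 7 and no common direction. Its 432 coding bases were 84.7% identical to those of Eif1ax, a translation initiation factor gene. It had 11.4 and 9.18 FPKM in sh replicates 1 and 2, 35.5 and 13.9 in sd, 12.5 and 20.4 in dd, and 18.6 and 10.4 in control. Both sh libraries lay below the control of their number and both sd libraries above it, and dd lay below it in replicate 1 and above it in replicate 2.

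The Gm5662 read ratios were 0.612 (0.511 to 0.733) and 0.883 (0.673 to 1.17) for sh, 1.91 (1.66 to 2.22) and 1.34 (1.03 to 1.75) for sd, and 0.673 (0.571 to 0.795) and 1.96 (1.54 to 2.55) for dd. Gm5662 shares 81.0% of its 30-base words with Gm2016, another gene of the group. The FPKM of the pair summed to 17.8 and 16.9 in sh, 55.6 and 25.5 in sd, 21.7 and 34.3 in dd, and 30.5 and 17.4 in control, the same pattern as Gm5662 alone. The log2 differences of Gm5662 were -0.41 for sh, 0.64 for sd and 0.19 for dd (SE 0.68; limma, adjusted p = 1 in each).

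**Figure D3:**
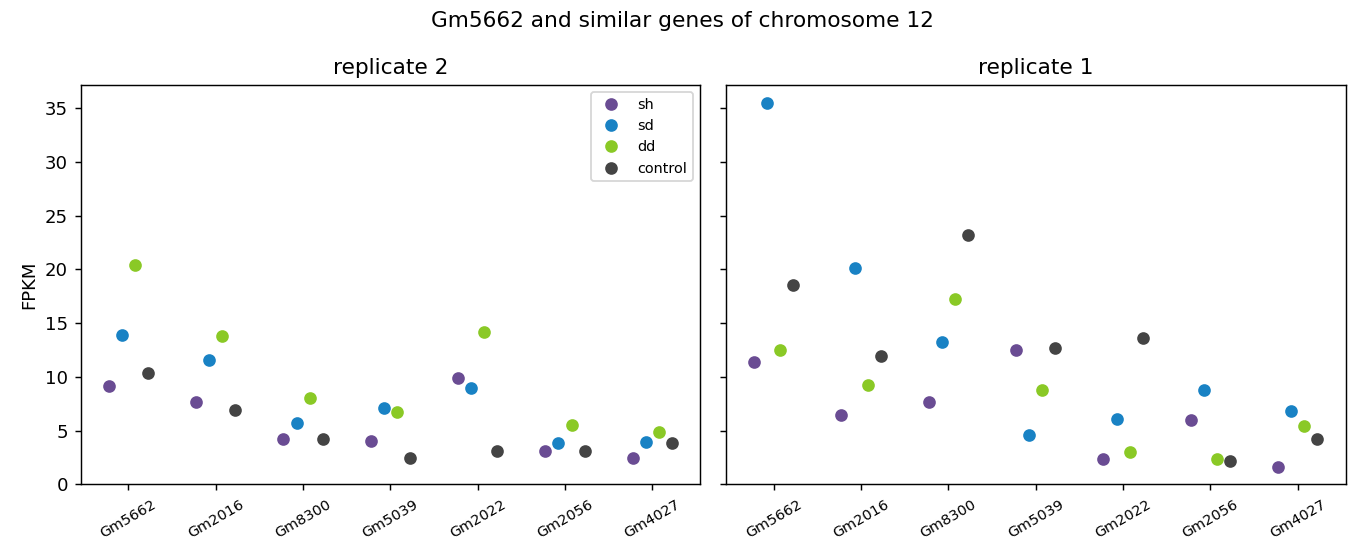
FPKM of Gm5662 and 6 similar genes of chromosome 12 in each group, replicate 2 on the left and replicate 1 on the right. Gm5662 and Gm2016 are highest in sd within replicate 1 and in dd within replicate 2, and Gm8300 within replicate 1 is highest in control at 23.2 FPKM.

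Duxf3 (ENSMUSG00000075046, chr10:58229979-58232675, minus strand) was all but missing from replicate 1. It had 2 reads in sh replicate 1, 1 in sd, 0 in dd and 1 in control, all under a floor of 3 reads, so no fold is given. In replicate 2 it had 165 reads in sh, 153 in sd, 25 in dd and 126 in control, or 4.38, 3.69 and 0.455 FPKM in sh, sd and dd, against 12.8 FPKM in control. The replicate 2 read ratios to control were 0.343 (0.270 to 0.436) for sh, 0.289 (0.227 to 0.369) for sd and 0.0356 (0.0222 to 0.0550) for dd. The log2 differences were -0.68, -0.80 and -1.66 (SE 1.45; limma, adjusted p = 1 in each), and all 3 turned positive without control replicate 2.

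The 4 neighbours that share sequence with Duxf3 were, like it, highest in control and lowest in dd within replicate 2. Of them, AW822073, Gm10807 and Gm19459 also had sh above sd, and Gm4981 had 0.965 FPKM in sh and 1.12 in sd. AW822073, which holds 43.0% of the 30-base words of Duxf3, had 5.33, 3.72 and 0.701 FPKM in sh, sd and dd replicate 2, against 15.6 FPKM in control replicate 2. In replicate 1 it had at most 0.0796 FPKM. Duxf3 and these 4 genes summed to 19.8 (sh), 14.1 (sd), 2.31 (dd) and 44.2 (control) FPKM in replicate 2. The share of olfactory receptor genes with a value was also lowest in dd among the replicate 2 libraries, at 50.4%, and their summed level was 291 (sh), 232 (sd), 28.5 (dd) and 383 (control) FPKM. The part of these signals in the Duxf3 values was not tested.

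**Figure D4:**
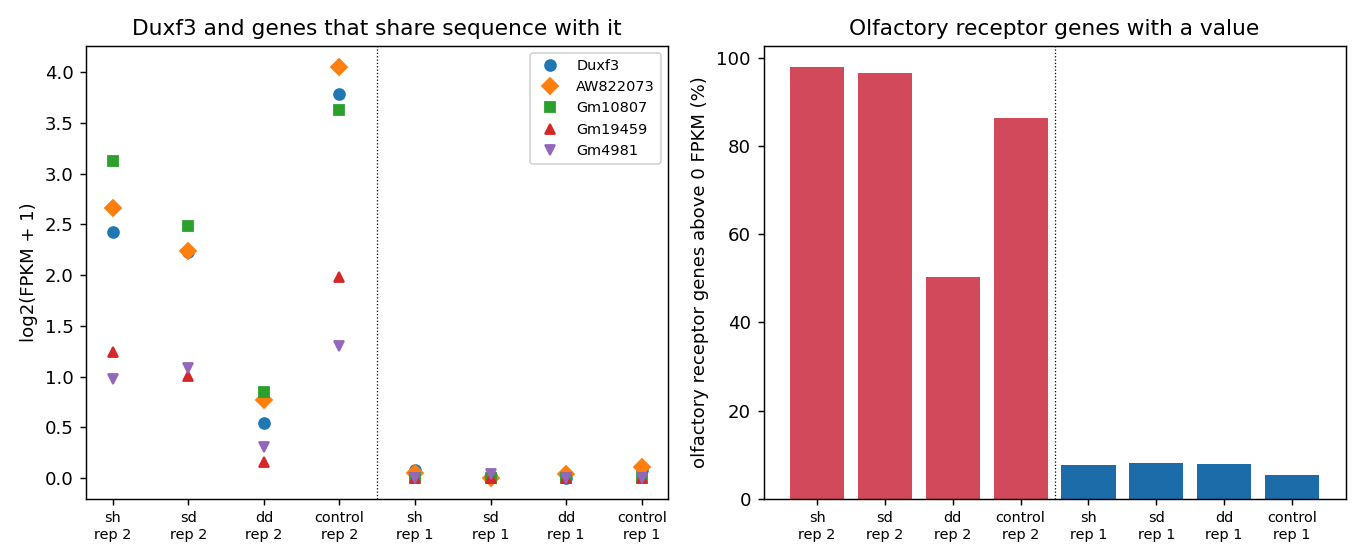
Left, log2(FPKM + 1) of Duxf3 and 4 genes that share sequence with it in each library, replicate 2 first. Right, percent of 1135 olfactory receptor genes above 0 FPKM. In replicate 2 both measures are lowest in dd, and in replicate 1 Duxf3 is at most 0.0578 FPKM and the olfactory share at most 8.19%.

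Counts over the 7 genes were read against all 14561 genes tested. In sh, 4 of 7 were above control under both replicate numbers (35.2% of all genes were) and 2 below (10.6%), which were Gm5662 and Duxf3. In sd, 6 were above (37.5%) and 1 below (12.7%), the lower one being Duxf3. In dd, 3 were above (31.0%), which were Zscan4c, Zscan4d and Zscan4f, and 1 below (15.1%). Both libraries lay above both control libraries for Zscan4f in sh (8.40% of all genes), and for Zscan4c and Zscan4f in sd (11.1%) and in dd (11.2%). The replicate 1 values of Duxf3 in these counts are under the floor. The 3 comparisons share the control libraries and are not independent. The 5 Zscan4 genes are close copies, so they do not count as 5 independent genes either.

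No gene passed the test against control. In limma, 0 of 14561 genes (0.00%) had an adjusted p under 0.05 in sh, sd or dd, and 32, 50 and 83 genes had an unadjusted p under 0.05. On recovered reads with voom weights 0 genes passed and 7, 11 and 24 had an unadjusted p under 0.05. The fit with no covariates keeps the difference between replicate numbers in its spread, so not passing there does not show that a gene was unchanged. In that fit, the smallest unadjusted p among the 7 genes was 0.0635 for Zscan4c in sd (limma, adjusted p = 1). With the replicate number as a block it was 0.00214, again for Zscan4c in sd (limma, adjusted p = 0.723). The median log2 difference of all genes was 0.15 in sh, 0.17 in sd and 0.06 in dd. Under quantile scaling these medians were 0.04, 0.04 and 0.05.

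Zscan4c and Zscan4d differed between the replicate numbers, as most genes did. Of all genes tested, 61.3% differed between replicate 2 and replicate 1 with group held in the fit, 46.6% higher and 14.6% lower in replicate 2. Under quantile scaling 4015 genes were higher and 4343 lower, against 6787 and 2133 as deposited. The median over all genes was 0.73 as deposited and 0.02 under quantile scaling. Zscan4d fell in replicate 2 by 1.28 on the log2 scale (SE 0.27; limma, adjusted p = 0.00343), and its 4 replicate 2 libraries all lay below its 4 replicate 1 libraries (14.2% of all genes). Zscan4c fell by 0.80 (SE 0.24; limma, adjusted p = 0.0186), a call that was lost without control replicate 1 or without any 1 of the sh and sd libraries. Duxf3 was higher in replicate 2 by 2.20 (SE 0.48), with all replicate 2 libraries above all replicate 1 libraries (41.9% of all genes). It entered the fit only through its replicate 2 values, so this is a description with no test.

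Zscan4f, Gm5662, Zscan4b and Zscan4e did not pass between replicate numbers with all libraries in the fit. Their log2 differences, replicate 2 minus replicate 1, were -0.36 for Zscan4f (SE 0.26), -0.42 for Gm5662 (SE 0.33), 0.31 for Zscan4b (SE 0.35) and 0.60 for Zscan4e (SE 0.40). Zscan4b was at -0.59 and Zscan4e at -0.23 under quantile scaling, so their direction depends on the scaling. Zscan4e passed as higher in replicate 2, at 1.06, without dd replicate 1 (limma, adjusted p = 0.0298) or without dd replicate 2 (limma, adjusted p = 0.0277). Zscan4f and Gm5662 passed as lower in replicate 2 under quantile scaling (-0.94 and -0.96) and under median ratio scaling (-0.85 and -0.96).

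Genes between the Zscan4 copies give the level of the interval itself. From the first to the last copy, chr7:10794242-11614112, GENCODE M21 lists 41 other genes, all pseudogenes. In replicate 2, 37 (sh), 39 (sd), 21 (dd) and 35 (control) of them were above 0, with medians of 0.348, 0.420 and 0.0227 FPKM in sh, sd and dd, against 0.761 FPKM in control. In replicate 1, 3 (sh), 3 (sd), 4 (dd) and 1 (control) were above 0. Zscan4b at 1.21 FPKM in control replicate 2 was above 25 of the 41 and Zscan4c at 2.40 FPKM above 35 of them. In sh, sd and dd replicate 2, Zscan4b was above 40, 37 and 39 of them and Zscan4c above 41, 40 and 40. The neighbour Gm7789 lay above Zscan4c in sd replicate 2 (9.95 FPKM) and dd replicate 2 (7.88 FPKM). In replicate 1 Zscan4b and Zscan4c were above all 41 in every library. The part of this wider signal in the replicate 2 values was not tested.

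**Figure D5:**
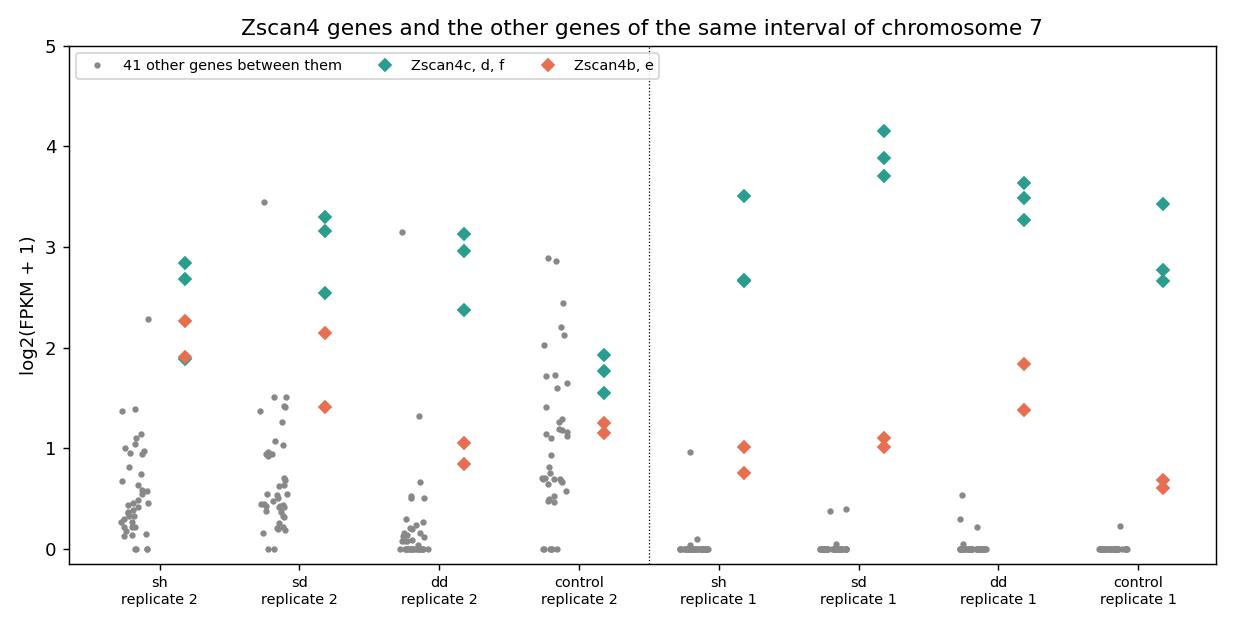
log2(FPKM + 1) of the Zscan4 genes (diamonds) and of the 41 other genes of the interval (grey points) in each library, replicate 2 first. The grey points lie at or near 0 in replicate 1 and spread upward in replicate 2, where control has the highest median at 0.761 FPKM.

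Other transcripts of 2-cell embryos were counted from a list of 46 genes, of which 43 were matched and 16 passed the filter. None of the 16 passed the test in sh, sd or dd. Above control under both numbers were 4 in sh, 8 in sd and 3 in dd, and below it 2, 0 and 1. Of all genes tested, 35.2%, 37.5% and 31.0% lay above control in this way and 10.6%, 12.7% and 15.1% below. The median log2 differences of the 16 were 0.02 in sh, 0.41 in sd and 0.29 in dd, against 0.15, 0.17 and 0.06 over all genes. Fbxo15, an F-box gene known as a marker of undifferentiated cells, had the highest mean level. It had 29.5 and 52.7 FPKM in sh replicates 1 and 2, 38.5 and 57.5 in sd, 39.3 and 35.0 in dd, and 26.2 and 38.0 in control. Zfp809, a zinc finger protein that silences retroviral sequence, had 8.39 and 6.92 FPKM in sh, 16.8 and 8.53 in sd, 12.9 and 8.32 in dd, and 12.7 and 5.17 in control. The Eif1a-like gene Gm8300 had 7.66 and 4.24 FPKM in sh, 13.3 and 5.73 in sd, 17.3 and 8.04 in dd, and 23.2 and 4.23 in control.

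Known activators of Dux or Zscan4 and known repressors of the 2-cell program were described in the same way. Of 9 activators, 8 passed the filter and none passed the test against control. Above control under both numbers were 4 in sh, 6 in sd and 5 in dd, beside 35.2%, 37.5% and 31.0% of all genes. Below it was 1 in each, beside 10.6%, 12.7% and 15.1% of all genes. The median log2 differences were 0.21, 0.50 and 0.28, against 0.15, 0.17 and 0.06 over all genes. Dppa2 and Dppa4 encode chromatin proteins needed for Dux transcription. Dppa2 had 64.9 and 9.86 FPKM in sh replicates 1 and 2, 101 and 12.6 in sd, 67.8 and 13.0 in dd, and 73.8 and 9.61 in control. Dppa4 had 27.3 and 30.6 FPKM in sh, 43.1 and 34.4 in sd, 53.7 and 33.1 in dd, and 26.3 and 24.2 in control. All treated Dppa4 libraries were above both control libraries, with log2 differences of 0.19, 0.59 and 0.72 (SE 0.58; limma, adjusted p = 1 in each). Of all genes, 8.40% had both sh libraries above both control libraries, 11.1% both sd libraries and 11.2% both dd libraries. The share with all treated libraries above both was not counted. Trp53, with the highest mean level of the list, was the gene below control under both numbers in sh, sd and dd. It had 160 and 12.6 FPKM in sh, 171 and 8.27 in sd, 134 and 1.19 in dd, and 177 and 13.0 in control.

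Of 32 repressors, 31 passed the filter and none passed the test against control. Above control under both numbers were 14 in sh, 20 in sd and 11 in dd, beside 35.2%, 37.5% and 31.0% of all genes. Below it were 0, 0 and 2, beside 10.6%, 12.7% and 15.1%. The median log2 differences were 0.23, 0.37 and 0.26, against 0.15, 0.17 and 0.06 over all genes. Cbx3, with the highest mean level of the list, had 1197 and 7.33 FPKM in sh, 773 and 7.53 in sd, 708 and 11.1 in dd, and 1416 and 5.75 in control. In sh, sd and dd it was below control in replicate 1 and above it in replicate 2. Trim28, the corepressor of zinc finger proteins that silence retroelements, had 77.4 and 86.8 FPKM in sh, 103 and 65.7 in sd, 89.4 and 19.0 in dd, and 64.9 and 78.0 in control. Rnf2, a Polycomb ubiquitin ligase, had 53.2 and 32.2 FPKM in sh, 67.1 and 31.7 in sd, 63.4 and 41.8 in dd, and 32.5 and 16.0 in control. All its treated libraries but sh and sd replicate 2 lay above both controls. Both dd libraries did so in 11.2% of all genes.

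As list sums, markers of other cells were low beside those of stem cells. By single gene the lists overlapped. The stem cell marker Lin28a averaged 3.21 FPKM over the 8 libraries, below Dazl at 27.1 FPKM and Fbln1 at 12.6 FPKM. The 12 stem cell markers summed to 1519 and 7071 FPKM in sh replicates 1 and 2, 1943 and 10152 in sd, 1960 and 9491 in dd, and 1515 and 8705 in control. Dppa5a made up most of the replicate 2 sums. It alone had 373 and 5866 FPKM in sh, 464 and 8584 in sd, 557 and 7616 in dd, and 292 and 7286 in control. The 10 feeder fibroblast markers summed to 19.9 and 26.3 FPKM in sh, 8.71 and 16.4 in sd, 9.55 and 8.92 in dd, and 15.7 and 21.6 in control. Of these 10, all but Fbln1 were at 0 in at least 1 library. The 8 germ cell markers summed to 27.8 and 34.8 FPKM in sh, 32.6 and 39.8 in sd, 44.1 and 46.5 in dd, and 33.5 and 24.9 in control, and Dazl made up most of it in several libraries. Ddx4, Gdf9, Nlrp5, Oog1 and Sycp3 were at 0 in at least 1 library. The 12 primitive endoderm markers summed to 58.0 and 22.8 FPKM in sh, 43.6 and 15.2 in sd, 46.0 and 14.8 in dd, and 40.3 and 24.7 in control, and Afp and Ttr were at 0 in some libraries. The 10 trophoblast markers summed to 13.5 and 32.4 FPKM in sh, 13.1 and 33.0 in sd, 11.8 and 22.8 in dd, and 11.04 and 35.0 in control, with 7 of the 10 at 0 in some library. Their part in the Zscan4 values was not tested.

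Genes whose pattern was most like the Zscan4 sum were ranked by Pearson correlation over the 8 libraries, after each gene's mean in each replicate number had been taken out. Among 9748 named genes the first 5 were Necap1 (r = 0.98), Amd2 (0.976), Khdrbs1 (0.969), Sfr1 (0.963) and Hnrnph1 (0.961). Khdrbs1 and Hnrnph1 encode RNA-binding proteins that act in splicing. The points share libraries, depth and the control values, and r is given as a description. Necap1 had 15.1 and 28.7 FPKM in sh replicates 1 and 2, 27.8 and 30.2 in sd, 21.8 and 29.3 in dd, and 14.8 and 16.2 in control. Without taking out the replicate means, 1 of these 5 genes, Sfr1, remained among the first 5. On the same measure the 5 parts of the sum themselves ranged widely. Zscan4f was at 0.993, Zscan4c at 0.921, Zscan4d at 0.811, Zscan4e at 0.584 and Zscan4b at 0.356. Outside the sum, Gm5662 was at 0.496 and Duxf3 at -0.53.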

How the data were processed

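Total RNA of mESCs was made into standard Illumina libraries, per the labels' protocols. The authors deposited FPKM per gene and library (fragments per kilobase, scaled to a library total that the file headers do not define). CASAVA 1.4, HISAT2 and the build mm10 appear in the submitters' processing notes. The sources used here do not give the counting program, its annotation or whether strand was used. Of 52338 gene rows with values, 52081 matched GENCODE M21 (GRCm38, the assembly mm10 names). FPKM times union exon length and a fitted library total gave whole reads, within 0.02, in 98.3% to 98.9% of the values below 100 reads. The fitted totals served as depth, and with these reads they gave the exact 95% read ratio intervals. Reads carry no molecular identifiers, so intervals cover counting error only.

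Genes were tested with limma 3.58.1 (R 4.3.3), on log2(FPKM + 1), over 14561 genes with a mean of at least 1 FPKM, in a single fit of 4 groups with no covariates and 4 residual degrees of freedom, two-sided, with Benjamini-Hochberg adjustment at 0.05 over all genes. This scale understates changes of low genes. The difference between replicate numbers was fitted with group (3 residual degrees of freedom). A check on simulated data was also run, but no result of it is given here. It does not show how the fit with no covariates behaves where libraries differ by replicate number. All 7 genes and their family copies are named. From each list the 6 genes of highest mean FPKM could be named, and the genes most like the Zscan4 sum were ranked without predicted, clone and pseudogene symbols. Olfactory receptor genes, the interval's pseudogenes, the neighbours of Duxf3 and the genes under the other observations were picked with their values known. The members and lists were chosen with earlier results of these data known. Alternatives were pseudocounts of 0.1 and 0.5, other filters and scalings, voom on recovered reads, the replicate number as a block, and leaving out each library.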

Additional observations from a re-analysis of the deposited data

How the results depend on the processing

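No gene passed against control in sh, sd or dd under any alternative run. Between replicate numbers, 5368 genes passed at a mean of at least 5 FPKM, where 7503 genes were tested, against 8920 in all. Same-numbered libraries of different groups deviated together (correlations of 0.75 to 0.893 over 6 pairs), but 2 numbers alone do not show that samples were paired. With the replicate number as a block, 0 genes passed against control and 480 (sh), 945 (sd) and 1310 (dd) had an unadjusted limma p under 0.05. Zscan4c then had an adjusted limma p of 0.999 in sh, 0.723 in sd and 0.553 in dd. Its log2 differences stayed at 0.83, 1.46 and 1.11, with an SE of 0.34 against 0.65 with no block. Between replicate numbers Zscan4b turned to -0.59 under quantile scaling and -0.012 under median ratio scaling, and Zscan4e to -0.23 under quantile scaling. The Zscan4c call was lost without the filter, without the group term, and without control replicate 1 or any 1 of the sh and sd libraries. Leaving out 1 library at a time sets unequal replicate numbers against each other. The log2 difference from control then ranged from -2.53 to 1.17 in sh, -2.66 to 1.05 in sd and -3.51 to 0.19 in dd for Duxf3, and from -1.15 to 0.73, -0.21 to 1.66 and -0.50 to 1.38 for Zscan4d. It ranged from -0.17 to 1.33 for Zscan4e in sh, -0.0028 to 1.29 (sd) and -0.20 to 0.58 (dd) for Gm5662, and -0.075 to 0.46 for Zscan4b in dd. The mean log2 ratio of the Zscan4 sum within numbers was 0.58 (sh), 1.24 (sd) and 0.86 (dd), and 0.05 to 1.10, 1.03 to 1.46 and 0.65 to 1.084 with 1 number left out. The causes were not tested. The control libraries, with fitted totals of 6415130 and 3658368 reads, limit all ratios.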

Other observations

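Of the 43 matched 2-cell transcripts, 3 had at least 10 reads in control replicate 1 and at most 1 read in each of the sh, sd and dd replicate 1 libraries, which are deeper. They were picked after their values had been seen. Rfpl4b, a Ret finger protein-like gene, had 0 reads in sh, sd and dd replicate 1, against 31 reads (4.58 FPKM) in control replicate 1. Tdpoz3, of a family with TD and POZ domains, had 0 reads in the same 3 treated libraries, against 18 reads (2.56 FPKM) in control. Usp17le, a ubiquitin protease gene, had 0, 1 and 0 reads in sh, sd and dd, against 14 reads (1.10 FPKM) in control. In replicate 2, Rfpl4b had 4 reads in sh, 11 in sd, 8 in dd and 0 in control, which is the shallowest library. Its order thus turned round between the numbers, on few reads. Tdpoz3 and Usp17le were highest in control in replicate 2 as well. Tdpoz3 had 1.30 (sh), 1.01 (sd) and 0.536 (dd) FPKM there, against 1.99 FPKM (8 reads) in control. Usp17le had 1.22 (sh), 1.05 (sd) and 0.444 (dd) FPKM, against 2.34 FPKM (17 reads) in control. Of the list, 17 genes had at least 10 reads in control replicate 1, as had 11508 of all genes. Among those 11508, 91 genes (0.791%) met the same rule, and no test was made.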
